A study of Mus musculus with 6 samples.

Results

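The genes described here are the subunits of the transcription factor NF-kB and the inhibitors that its own activity induces, 10 genes in all: Nfkb1, Nfkb2, Rel, Rela, Relb, Nfkbia, Nfkbie, Nfkbiz, Tnfaip3 and Tnip1. They were chosen by name, as every probe of the non-normalized signal table whose platform gene symbol is one of these. This gave 14 of 45281 probes, for 9 of the 10 genes. No probe of the tables used here carries the symbol Nfkb1, which was not analysed here. The genes were chosen with earlier results of these data known. The study measured RNA of macrophages labelled M2-like, from C57BL/6 mice of 10 weeks of age, on 6 Illumina bead arrays, 2 for each of 3 groups: the heart after myocardial infarction (MI heart), the intact heart, and the peritoneal cavity. No genetic change and no drug is named for any group, no group is named as sham-operated, and the sources used here give no time after infarction. The series title defines the cells of every group as CD206+, F4/80+ and CD11b+. It is not labelled whether a group's arrays came from separate animals, or how many animals were pooled, so the p-values below rest on variation among arrays, which may be technical only.

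NF-kB is a family of dimers that macrophages hold ready in the cytoplasm and use to switch on inflammatory genes within minutes of a signal from Toll-like receptors, cytokine receptors or cell stress. The subunits with a transactivation domain are encoded by Rela (p65), Rel (c-Rel) and Relb, and Nfkb2 encodes a precursor that is cut to the p52 subunit. Nfkbia (IkB alpha) and Nfkbie (IkB epsilon) encode proteins that hold the dimers in the cytoplasm until they are degraded. Nfkbiz (IkB zeta) encodes a nuclear relative that acts on a later set of targets, among them Il6 and Lcn2. Tnfaip3 encodes the ubiquitin-editing enzyme A20, and Tnip1 its binding partner ABIN1, which together dampen the signal upstream of the kinases. Most of these genes are themselves NF-kB targets, so their transcripts are often read as a trace of recent signalling, although transcript levels do not measure the nuclear protein.

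Promoter sequence is shown because feedback through NF-kB binding is a textbook feature of most of these genes. They were listed as known parts of this feedback, so their share of matches is no test of it. Whether the matches go with the levels below was not tested. RefSeq windows of 300 bases (250 before and 50 from the start site, GRCm38.p6) were found for 7 of the 10 genes, with several start sites for some and 10 windows in all. Nfkb1, Relb and Nfkbiz had no window. The NF-kB consensus was written as GGGRNNYYCC (R is A or G, Y is C or T, N is any base). It has 10 letters and was searched on both strands, overlapping matches allowed. A match lay in 8 of the 10 windows and in 6 of the 7 genes, all but Rela. Neighbouring Nfkb2 windows overlap, and the match at chr19:46305705-46305714 counts in both. The Tnfaip3 window at chr10:19011914-19012213 held no match. For Nfkb2 only the most upstream window is printed. Of all 32851 windows of this length 8.46% held one, and of all 27025 genes with a window 9.55%. Matched bases are in capitals below, each stretch is written 5′ to 3′ on the gene's strand, and positions count back from the start site. Where matches overlap, the capitals run on as 1 block.
Nfkbia, chr12:55492648-55492696, minus strand, positions -49 to -1: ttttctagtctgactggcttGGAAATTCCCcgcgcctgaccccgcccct
Nfkbie, chr17:45555574-45555623, plus strand, positions -126 to -77: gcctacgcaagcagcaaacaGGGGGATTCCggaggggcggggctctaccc
Rel, chr11:23771031-23771081, minus strand, positions -112 to -62: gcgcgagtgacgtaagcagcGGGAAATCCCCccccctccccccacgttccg
Nfkb2, chr19:46304678-46304736, plus strand, positions -59 to -1: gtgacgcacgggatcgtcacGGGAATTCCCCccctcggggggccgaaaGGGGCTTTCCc
Tnfaip3, chr10:19015411-19015555, minus strand, positions -145 to -1: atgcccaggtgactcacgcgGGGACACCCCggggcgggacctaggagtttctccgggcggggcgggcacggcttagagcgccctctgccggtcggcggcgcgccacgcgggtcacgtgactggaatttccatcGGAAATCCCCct
Tnip1, chr11:54962967-54963018, minus strand, positions -78 to -27: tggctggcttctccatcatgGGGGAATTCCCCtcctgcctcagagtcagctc

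A match in these letters is a description of the sequence, not evidence of binding, and the Rela window, which held none, says nothing of the factor at other positions.

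A probe counted as above background where its detection p was under 0.05, which held for 12433 to 14606 of the 45281 probes per array (27.5% to 32.3%). Of 10 macrophage markers, 9 had a probe, and all 9 were above background on both arrays of every group, among them the gate genes Mrc1 (CD206), Adgre1 (F4/80) and Itgam (CD11b). Mrc1 was 13.6-fold higher in the MI heart and 21.8-fold higher in the intact heart than in the peritoneal cavity, although all 3 groups carry the same CD206+ label. The gate gene Itgam went the other way, 2.07-fold lower in the MI heart and 4.22-fold lower in the intact heart than in the peritoneal cavity, and so did Lyz2, which encodes lysozyme, 1.84-fold lower in the MI heart and 2.36-fold lower in the intact heart. Values below are background-corrected, quantile-normalized log2 signals to which an offset of 16 was added before the log, which shrinks differences of dim probes. Probes differ in how well they bind, so levels are compared between arrays and never between genes.

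Macrophages of both heart groups carried more transcript of nearly all these genes than peritoneal macrophages did. Of the 9 genes tested, 8 were higher in the MI heart than in the peritoneal cavity and 0 lower, with Rela not called. Of all 10533 genes and unnamed probes tested, 9.16% were called higher in that comparison, 8.45% lower and 17.6% in either direction. In the intact heart 8 of 9 were also higher than in the peritoneal cavity and 0 lower, with Tnip1 not called, beside 12.5% of all tests called higher, 12.8% lower and 25.4% in either direction. The arrays of the MI heart and the peritoneal cavity did not overlap for 9 of 9 genes, as for 60.9% of all tests, and those of the intact heart and the peritoneal cavity for 8 of 9, as for 63.3%. The median log2 difference of the 9 genes was 1.55 for the MI heart and 1.39 for the intact heart against the peritoneal cavity, beside medians over all tests of -0.05 for the MI heart and -0.03 for the intact heart. Relb and Tnfaip3 were above background on no peritoneal array, and with both at their lower bound the medians were 1.38 for the MI heart and 1.23 for the intact heart. Both comparisons use the same peritoneal arrays and so are not independent. Rel, Relb and Tnfaip3 passed the detection filter through the heart arrays alone. Of the 6 genes above background on all 6 arrays, 5 were higher in each heart group than in the peritoneal cavity. The matching share over all tests above background on all arrays was not counted. Under a stricter filter, detection p under 0.01 on all arrays, 538 of 5135 tests were higher in the MI heart than in the peritoneal cavity. There, 3 of the 4 NF-kB genes tested were higher. In RNA of a bulk sample, more cells with a transcript and more transcript per cell cannot be told apart.

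**Figure D1:**
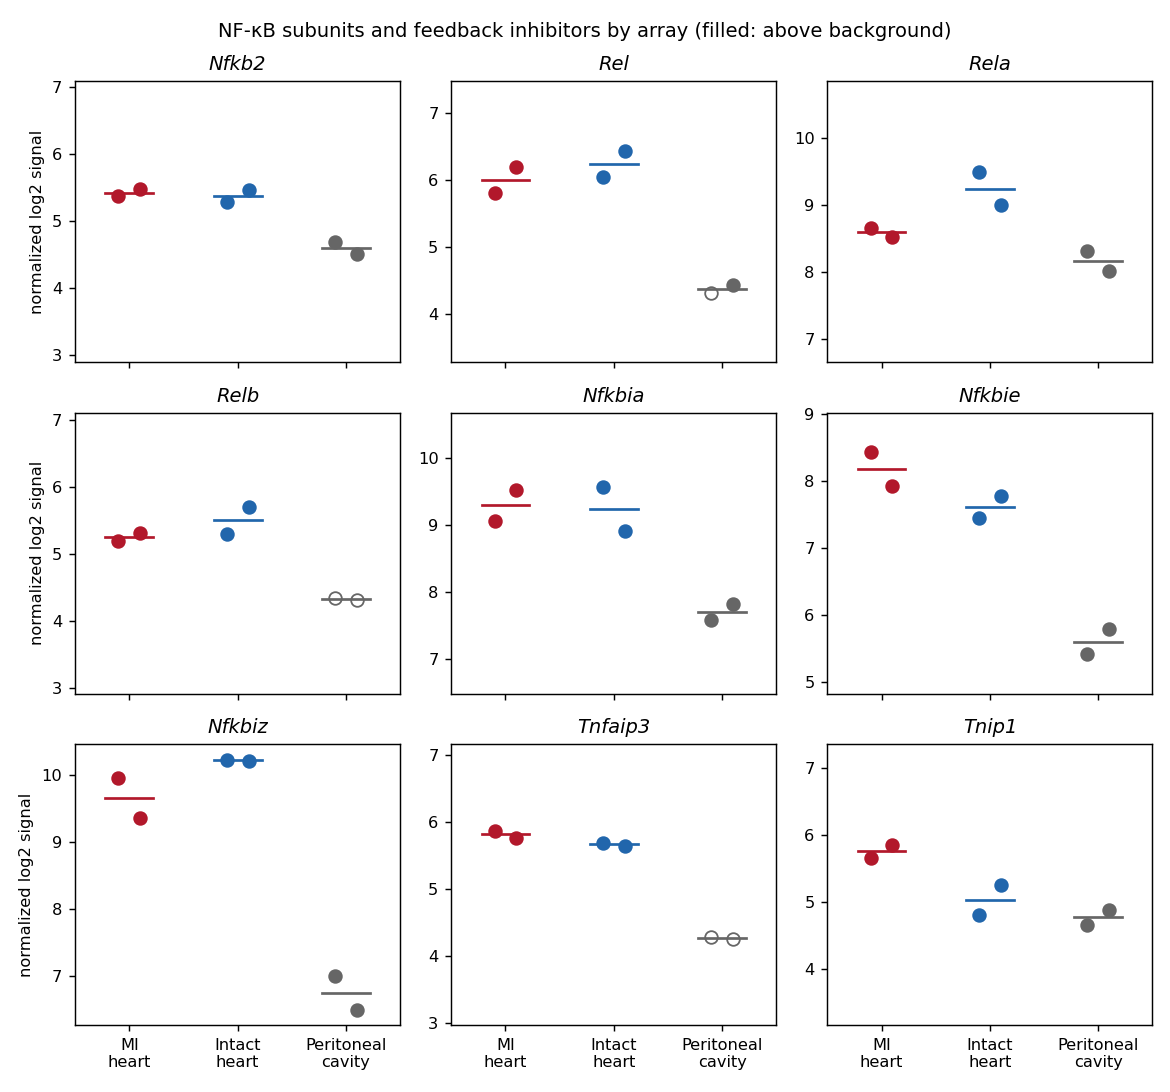
Normalized log2 signal of the 9 genes with a probe, 1 point for each array and a line at each group's mean, with every panel spanning the same number of log2 units; filled points were above background (detection p under 0.05). The peritoneal arrays lie below the arrays of both heart groups in 8 panels, and in the Tnip1 panel the lower intact heart array (4.82) lies below the higher peritoneal array (4.89).

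Among the subunits, Rel was higher in both heart groups than in the peritoneal cavity. Its log2 signal was 5.80 and 6.19 in the MI heart and 6.04 and 6.44 in the intact heart, against 4.32 and 4.43 on the peritoneal arrays. All 4 heart arrays lay above both peritoneal arrays, of which only 1 was above background for Rel. The difference was 1.62 ± 0.20 (SE, n = 2 arrays per group throughout) for the MI heart, or 3.07-fold (limma adjusted p = 0.000659), and 1.86 ± 0.20 for the intact heart, or 3.64-fold (limma adjusted p = 0.000249). Relb, which pairs with the Nfkb2 product in the slower non-canonical pathway, had 5.20 and 5.31 in the MI heart and 5.30 and 5.70 in the intact heart, against 4.35 and 4.32 in the peritoneal cavity. Neither peritoneal array was above background for Relb, so only a bound can be given: it was at least 1.77-fold higher in the MI heart (limma adjusted p = 0.0077) and at least 2.1-fold higher in the intact heart (limma adjusted p = 0.00179). Such bounds allow for the detection floor but not for variation among arrays. The 95% intervals of the Relb log2 differences began lower, at 0.51 for the MI heart and 0.76 for the intact heart. The MI heart call was lost without MI heart replicate 2 (adjusted p = 0.0791), peritoneal replicate 1 (0.057) or peritoneal replicate 2 (0.0713).

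Nfkb2 itself read 5.38 and 5.48 in the MI heart and 5.30 and 5.46 in the intact heart, against 4.69 and 4.51 in the peritoneal cavity. The heart arrays overlapped each other and lay above the peritoneal ones, with differences of 0.83 ± 0.16 for the MI heart (limma adjusted p = 0.0077) and 0.78 ± 0.16 for the intact heart (limma adjusted p = 0.00808). Without peritoneal replicate 2 neither call was kept (adjusted p = 0.0725 for the MI heart and 0.0686 for the intact heart), and the MI heart call was also lost without MI heart replicate 2 (0.0759).

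Rela, the subunit of the most common NF-kB dimer, differed least from the peritoneal cavity in the MI heart. It read 8.66 and 8.52 in the MI heart, 9.48 and 9.0 in the intact heart and 8.31 and 8.01 in the peritoneal cavity. The intact heart arrays were highest and overlapped neither other group. The intact heart exceeded the peritoneal cavity by 1.08 ± 0.20, or 2.11-fold (limma adjusted p = 0.00513; 0.0541 without peritoneal replicate 2). The MI heart differed from the peritoneal cavity by 0.43 ± 0.20 (limma adjusted p = 0.205), with a 95% interval of -0.04 to 0.89.

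Among the 6 genes above background on all arrays, the inhibitor genes Nfkbiz and Nfkbie differed most between the heart groups and the peritoneal cavity. Nfkbiz read 9.95 and 9.36 in the MI heart and 10.23 and 10.21 in the intact heart, against 7.0 and 6.49 in the peritoneal cavity. In the deposited signal this was 1153.1 and 701 in the MI heart and 1055 and 1323.2 in the intact heart, against 190.5 and 169.9 in the peritoneal cavity. The gap was far wider than that between arrays of a group: 2.91 ± 0.24 for the MI heart, or 7.51-fold (limma adjusted p = 6.45e-05), and 3.47 ± 0.24 for the intact heart, or 11.1-fold (limma adjusted p = 1.77e-05). Nfkbie, which binds c-Rel and p65 dimers and is replaced after each round of signalling, read 8.44 and 7.93 in the MI heart and 7.45 and 7.79 in the intact heart, against 5.42 and 5.79 in the peritoneal cavity. It was 5.97-fold higher in the MI heart (2.58 ± 0.23, limma adjusted p = 9.4e-05) and 4.03-fold higher in the intact heart (2.01 ± 0.23, limma adjusted p = 0.000318). For Nfkbie the MI heart arrays were highest, and for Nfkbiz the intact heart arrays.

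Nfkbia, the inhibitor that is destroyed and remade fastest, read 9.07 and 9.53 in the MI heart and 9.57 and 8.91 in the intact heart, against 7.59 and 7.83 in the peritoneal cavity. The arrays of both heart groups overlapped fully. The differences were 1.59 ± 0.25 for the MI heart, or 3.01-fold (limma adjusted p = 0.00258; 0.0571 with no filter on dim probes), and 1.53 ± 0.25 for the intact heart, or 2.89-fold (limma adjusted p = 0.00241). The A20 gene Tnfaip3 read 5.86 and 5.76 in the MI heart and 5.68 and 5.64 in the intact heart, against 4.28 and 4.25 in the peritoneal cavity, where neither array was above background. Its bound was at least 2.60-fold higher in the MI heart (limma adjusted p = 0.000172) and at least 2.34-fold higher in the intact heart (limma adjusted p = 0.000257). Rel, Nfkbie, Nfkbiz and Tnfaip3 kept both of these calls under every alternative in which they were tested. The sizes depended on the background correction. Without it, the MI heart log2 differences were 0.61 for Rel, 0.56 for Tnfaip3, 1.65 for Nfkbie and 2.34 for Nfkbiz. Those of the intact heart were 0.74 for Rel, 0.50 for Tnfaip3, 1.20 for Nfkbie and 2.86 for Nfkbiz.

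**Figure D2:**
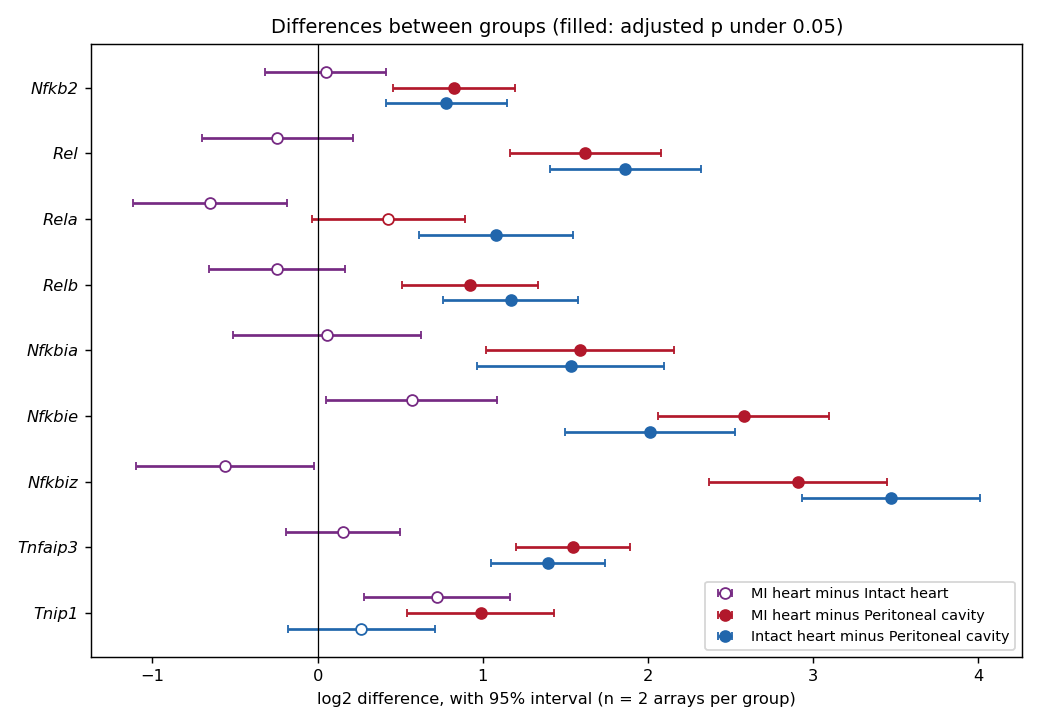
Log2 difference of each gene in the 3 comparisons, with its 95% interval (2 arrays per group); filled points had an adjusted p under 0.05. Differences of the heart groups from the peritoneal cavity reach 3.47 (Nfkbiz, intact heart), while those of the MI heart from the intact heart lie between -0.65 (Rela) and 0.72 (Tnip1), none of them called.

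In the MI heart against the intact heart, 0 of the 9 genes were called by limma, beside 9.5% of all tests called in either direction (4.55% higher, 4.96% lower). The balance of all calls depended on the scaling: median scaling gave 612 higher and 165 lower in this comparison, against 479 and 522 with quantile normalization, and 742 higher and 1922 lower for the intact heart against the peritoneal cavity, where quantile normalization gave 1321 and 1352. At an unadjusted p under 0.05 there were 4 of 9, and 25.1% of all tests. The median log2 difference of the 9 genes was 0.05, and that of all tests was -0.0033. The 4 genes pointed both ways: Tnip1 and Nfkbie towards the MI heart, Rela and Nfkbiz towards the intact heart. The missing calls do not show equal levels. For Nfkb2 the difference was 0.05 ± 0.16 with a 95% interval of -0.32 to 0.41, for Nfkbia 0.06 ± 0.25 with -0.51 to 0.63, and for Tnfaip3 0.15 ± 0.15 with -0.19 to 0.50. Rel differed by -0.24 ± 0.20 (-0.70 to 0.21; 0.020 with median scaling) and Relb by -0.25 ± 0.18 (-0.66 to 0.16).

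Rela had the lowest value of this comparison, with a difference of -0.65 ± 0.20 (limma adjusted p = 0.084) and a 95% interval of -1.12 to -0.19. Its adjusted p was 0.0375 without intact heart replicate 2. Nfkbiz differed by -0.56 ± 0.24 (limma adjusted p = 0.181), with a single MI heart array at 9.36 well below the other at 9.95: the difference was -0.27 without MI heart replicate 2 and -0.86 without MI heart replicate 1. Nfkbie differed by 0.57 ± 0.23 (limma adjusted p = 0.158), by 0.32 without MI heart replicate 1 and by 0.83 without MI heart replicate 2. The arrays of the 2 groups did not overlap for these 3 genes, nor for Tnip1 and Tnfaip3, so for 5 of 9 genes, as for 54% of all tests.

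Tnip1 stood nearest to a call and was the only one of the 9 genes with 4 probes. Its brightest probe (ILMN_2498442) read 5.67 and 5.86 in the MI heart, 4.82 and 5.26 in the intact heart and 4.67 and 4.89 in the peritoneal cavity. The MI heart arrays were highest, and the intact heart overlapped the peritoneal cavity. The MI heart differed from the intact heart by 0.72 ± 0.20 (limma adjusted p = 0.0529; 0.0283 without intact heart replicate 2). It was 1.98-fold higher than the peritoneal cavity (0.99 ± 0.20, limma adjusted p = 0.00823), a call lost without MI heart replicate 2 (adjusted p = 0.0893), without peritoneal replicate 1 (0.0825) and with no filter (0.0618). The intact heart differed from the peritoneal cavity by 0.26 ± 0.20 (limma adjusted p = 0.361).

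The dimmer Tnip1 probes gave the same order. With every probe tested on its own over 14817 probes, of which 8.92% were called between the MI and the intact heart, probe ILMN_2799361 was higher in the MI heart by 0.76 ± 0.16 (limma adjusted p = 0.0202) and probe ILMN_2417863 by 0.70 ± 0.17 (limma adjusted p = 0.0344). The brightest probe stayed just short of a call there too (limma adjusted p = 0.0529). The deposited signal of ILMN_2799361 was 101.9 and 102.2 in the MI heart, against 82.2 and 89.9 in the intact heart, of which 1 array was above background. The last probe, ILMN_1228123, was above background on no array and was not tested. These probes read the same RNA samples and are not further replicates.

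Nfkbia and Nfkbie had 2 probes each. The dimmer Nfkbia probe (ILMN_3001914) read 5.69 and 5.78 in the MI heart and 5.36 and 5.67 in the intact heart, against 4.47 and 4.70 in the peritoneal cavity. It gave calls in the same direction, 1.15 ± 0.18 for the MI heart (limma adjusted p = 0.00213) and 0.92 ± 0.18 for the intact heart (limma adjusted p = 0.00523), where 17% of all probes were called for the MI heart and 24.5% for the intact heart. The dimmer Nfkbie probe (ILMN_1238752) was above background on the MI heart arrays alone, with deposited signals of 88.1 and 87.1, against 82.6 and 86 in the intact heart and 73.7 and 83.6 in the peritoneal cavity. None of its differences was called, so the Nfkbie result rests on 1 of its 2 probes.

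**Figure D3:**
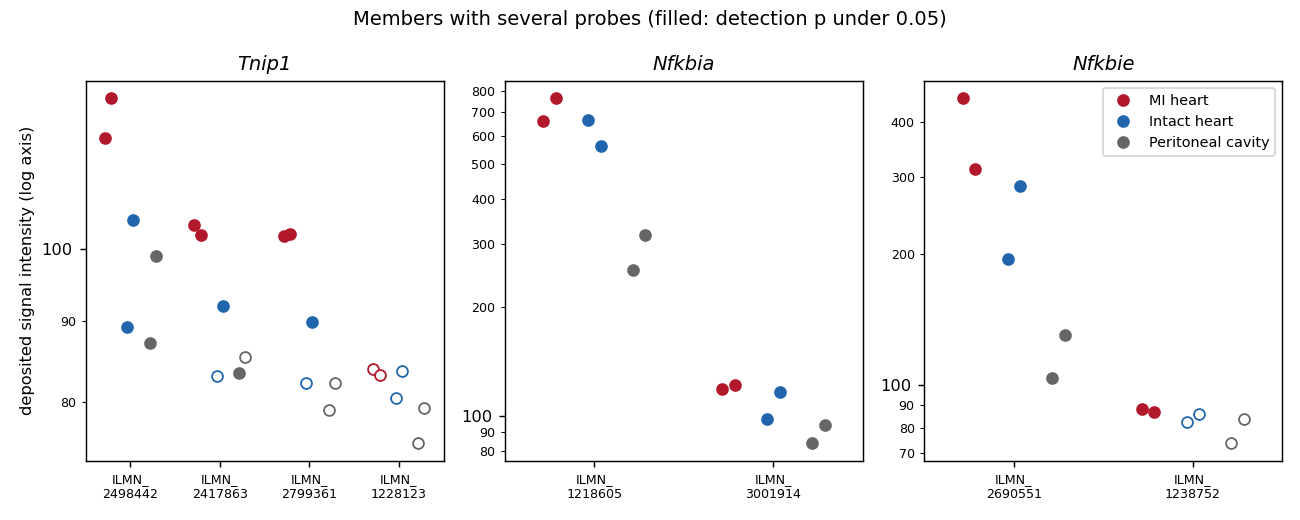
Deposited signal intensity (log axis) of every probe of Tnip1, Nfkbia and Nfkbie on each array, with MI heart, intact heart and peritoneal cavity from left to right; filled points had a detection p under 0.05. For Tnip1, 3 probes place the MI heart arrays highest, and the fourth, like the right-hand Nfkbie probe, lies near background.

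Other genes of the pathway were counted from lists of known components. These lists were written with earlier results of these data known, so their counts are descriptions and no test. Of all tests, 17.6% were called in either direction for the MI heart and 25.4% for the intact heart against the peritoneal cavity. Between the heart groups 9.5% were called. Some kinases and adaptors, receptors, targets and stress genes passed the detection filter through the heart arrays alone. Of 15 tested inhibitors outside the 9 genes, 5 had higher and 1 had lower levels in the MI heart than in the peritoneal cavity, and 6 higher and 2 lower in the intact heart. Nfkbid, which encodes another nuclear IkB protein, was 6.17-fold higher in the MI heart (2.62 ± 0.24, limma adjusted p = 0.000106) and 10.8-fold higher in the intact heart (3.44 ± 0.24, limma adjusted p = 1.78e-05). Zc3h12a, the RNase regnase-1 that degrades inflammatory transcripts, was higher by 1.88 ± 0.19 in the MI heart and 1.55 ± 0.19 in the intact heart. Nkiras2, a Ras-like protein that binds IkB, differed by -1.39 ± 0.20 in the MI heart and -1.54 ± 0.20 in the intact heart, lower in both. Between the MI and the intact heart 2 of the 15 were higher and 2 lower. The largest of these differences were 0.78 ± 0.17 for N4bp1 (limma adjusted p = 0.0221), an inhibitor of Toll-like receptor signalling to NF-kB, -0.65 ± 0.15 for Pias1 (limma adjusted p = 0.0319), a SUMO ligase that blocks p65 binding to DNA, and 0.63 ± 0.15 for Commd1 (limma adjusted p = 0.0363), which promotes p65 degradation. Tnip2 was the other gene called lower, by -0.63 ± 0.16 (limma adjusted p = 0.047).

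Of 22 tested kinases and adaptors that carry the signal, 6 had higher and 0 had lower levels in the MI heart than in the peritoneal cavity, and 7 higher and 1 lower in the intact heart. Traf1, an adaptor that is itself an NF-kB target, was at least 6.16-fold higher in the MI heart and at least 4.07-fold higher in the intact heart, and Irak2, a kinase-like adaptor of Toll-like receptors, was higher by 1.73 ± 0.19 in the MI heart and 1.47 ± 0.19 in the intact heart. Between the MI and the intact heart 2 were higher and 0 lower, or 9.09%, near the 9.5% of all tests: the paracaspase gene Malt1 (1.32 ± 0.25, limma adjusted p = 0.0149) and Irak3, an inhibitory IRAK (1.00 ± 0.24, limma adjusted p = 0.0348). Of 20 receptors, 6 were higher in each heart group than in the peritoneal cavity, with 0 lower in the MI heart and 1 in the intact heart, among them Tlr2, a receptor of bacterial lipoproteins, by 2.57 ± 0.22 in the MI heart and 2.33 ± 0.22 in the intact heart. Tlr9, a sensor of unmethylated DNA, was at least 2.81-fold higher in the MI heart and at least 2.72-fold higher in the intact heart. Cd14, the co-receptor of Tlr4, was higher by 1.65 ± 0.17 in the MI heart and 1.27 ± 0.17 in the intact heart. In the MI heart against the intact heart only Tlr13, a sensor of bacterial ribosomal RNA, was called (0.99 ± 0.23, limma adjusted p = 0.0304).

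Among 36 tested NF-kB target genes, the MI heart had 25 at higher and 0 at lower levels than the peritoneal cavity, with a median log2 difference of 1.78. In the intact heart 24 were higher and 3 lower, with a median of 1.78. Of the targets with a probe, 20 were above background on both peritoneal arrays, beside 35 in the MI heart and 31 in the intact heart. Some of those called higher thus passed the detection filter through the heart arrays alone. Of the 40 listed targets with a probe, Il6, Ccl20, Nos2 and Lcn2 failed this filter in every group and so were not tested. Il6 and Lcn2 are the targets of Nfkbiz named above, so their levels could not be compared here. With the 12 targets above background on no array of the dimmer group at their bound, the median was 1.77 for the MI heart and 1.68 for the intact heart. The chemokine gene Ccl4 was higher by 6.67 ± 0.17 in the MI heart (limma adjusted p = 4.85e-07) and 6.54 ± 0.17 in the intact heart (limma adjusted p = 2.28e-07), with 1 of 2 peritoneal arrays above background. Cd83, whose product marks activated dendritic cells and macrophages, was at least 34.2-fold higher in the MI heart and at least 54.6-fold higher in the intact heart. Saa3, an acute-phase gene on the same list, went the other way in the intact heart (-6.44 ± 0.28, limma adjusted p = 2.44e-06, with 1 of 2 intact heart arrays above background). Between the MI and the intact heart 7 targets were higher and 2 lower. The higher ones included Saa3 (5.90 ± 0.28), the lectin receptor gene Clec4e (2.99 ± 0.42) and the cyclooxygenase gene Ptgs2 (1.85 ± 0.24). For Clec4e only 1 of 2 intact heart arrays was above background, and these arrays lay far apart (SD 1.13 log2 units). The lower ones were Icam1 (-0.85 ± 0.15) and Cd83 (-0.67 ± 0.16). The median of the 36 targets in that comparison was 0.17. Some genes stand on several of these lists, such as Tlr2, Cd40, Traf1 and Birc3. Ier3 stands on the target list and on the list of immediate early and stress genes below.

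**Figure D4:**
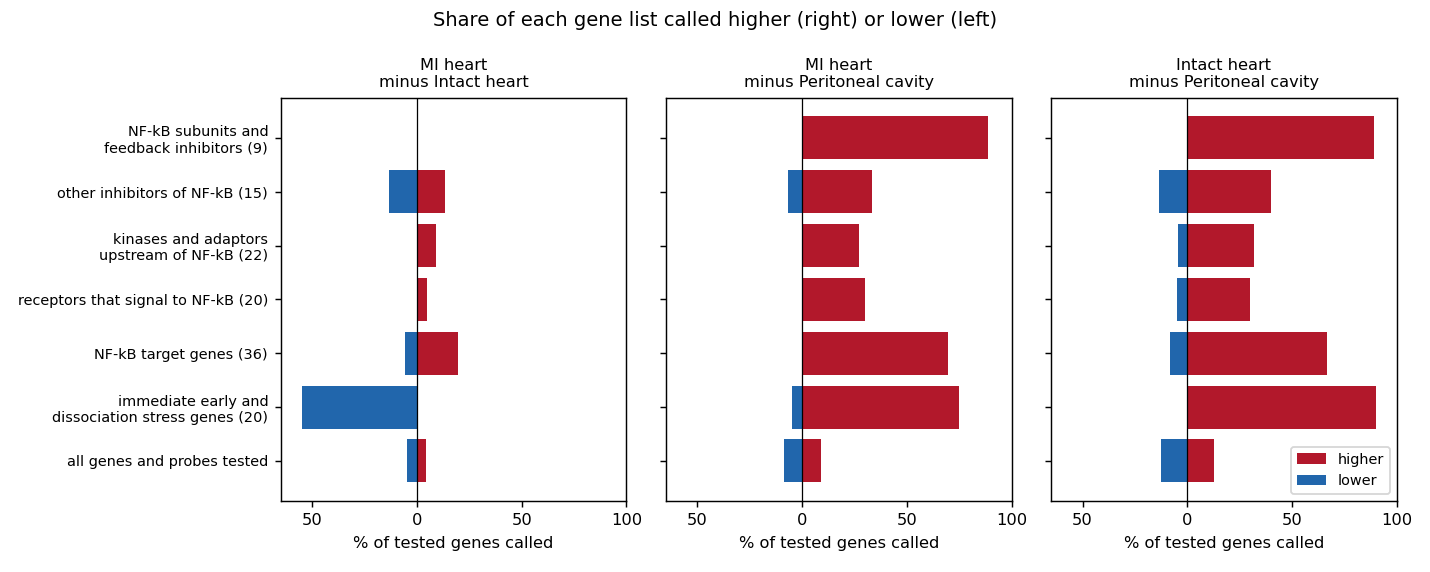
Share of the tested genes of each list that was called higher (to the right) or lower (to the left) in each comparison, with the number tested in brackets and all 10533 tests in the bottom row. The NF-kB subunits and feedback inhibitors have 8 of 9 higher in both comparisons with the peritoneal cavity and 0 called between the heart groups, where 11 of 20 immediate early and stress genes were lower.

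Genes of the immediate early and dissociation stress response were also mostly higher in the heart groups than in the peritoneal cavity. Against the peritoneal cavity, the MI heart had 15 of the 20 tested higher and 1 lower, and the intact heart had 18 higher and 0 lower. Against the intact heart, the MI heart had 0 higher and 11 lower, with a median log2 difference of -0.80, where the NF-kB genes had 0 of 9 called and a median of 0.05. The heat-shock gene Hspa1a was higher by 3.98 ± 0.24 in the MI heart and 5.83 ± 0.24 in the intact heart than in the peritoneal cavity, and the MI heart differed from the intact heart by -1.84 ± 0.24. The summed linear level of the list was 11267 to 11537 on the MI heart arrays and 17211 to 17530 on the intact heart arrays, against 3929 to 4323 on the peritoneal arrays. The same sum over the 9 NF-kB genes, in which bright probes weigh most, was 2133 to 2375 in the MI heart and 2521 to 2931 in the intact heart, against 600.1 to 647.4 in the peritoneal cavity. In both sums the heart arrays lay above the peritoneal arrays, and the MI heart arrays lay below the intact heart arrays. Single NF-kB genes did not share this order of the heart groups: 5 of 9 had a higher mean in the MI heart, and 0 were called. The bright Nfkbiz (-0.56 ± 0.24) and Rela (-0.65 ± 0.20) were among those lower in the MI heart. The sources used here do not say how the cells were freed from the tissue, and the part of this response in the NF-kB results was not tested.

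Markers of other cells were mostly at or near background, counting a marker as above it in a group where both arrays detected it. Of 8 T and NK cell markers and 5 mast cell markers with a probe, 0 were above background throughout a group, and of 8 endothelial markers only Cdh5 was, in the MI heart. Neutrophil markers were above background for 2 of 8 in the MI heart (S100a9 and Csf3r), 2 of 8 in the intact heart (Csf3r and Ltf) and 1 of 8 in the peritoneal cavity (Csf3r), with neither S100a8 nor Cxcr2 detected on a whole group. The summed level of that list was 76.8 to 183 in the MI heart, 42.1 to 43.2 in the intact heart and 81.8 to 81.9 in the peritoneal cavity. S100a9 was called higher in the MI heart, at least 3.58-fold over the intact heart and at least 3.74-fold over the peritoneal cavity. Its MI heart arrays lay far apart (SD 1.29 log2 units). Csf3r was called lower than in the peritoneal cavity in the MI heart (-0.81 ± 0.17) and the intact heart (-1.42 ± 0.17). Dendritic cell markers were above background for 2 of 8 in the MI heart, 1 of 8 in the intact heart and 0 of 8 in the peritoneal cavity, and Zbtb46 and Flt3 were not above background in any group. Their sums were 33.2 to 37.1 in the MI heart, 61.6 to 76.9 in the intact heart and 29.5 to 33.7 in the peritoneal cavity. Cardiomyocyte markers were above background for 2 of 9 in the MI heart, 5 of 9 in the intact heart and 1 of 9 in the peritoneal cavity, and summed to 61.6 to 66.2 in the MI heart and 147 to 187 in the intact heart, against 38.2 to 50.4 in the peritoneal cavity. Of these, Myl2 was called higher than in the peritoneal cavity, at least 1.64-fold in the MI heart and at least 4.23-fold in the intact heart. Myl3 was also called higher in both heart groups, and Nppa in the intact heart. Ryr2 was called lower in both heart groups than in the peritoneal cavity, and Tnni3, Actc1 and Pln were not above background in any group. Between the heart groups, Myl2 (-1.36 ± 0.21) and Myl3 (-0.84 ± 0.16) were called lower in the MI heart. Fibroblast markers were above background for 3 of 8 in the MI heart, 1 of 8 in the intact heart and 1 of 8 in the peritoneal cavity, with sums of 63.4 to 67.2 in the MI heart, 31.3 to 39.9 in the intact heart and 25.6 to 30 in the peritoneal cavity. The cardiomyocyte and the fibroblast sums were thus higher in both heart groups than in the peritoneal cavity. Of B cell markers 1 of 3 was above background in each heart group and 0 of 3 in the peritoneal cavity. The part of these other cells in the results was not tested.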

How the data were processed

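The deposited non-normalized table gives an average signal intensity with its detection p-value per probe, per the file headers. These intensity values are linear and unnormalized, with array medians of 79.8 to 83.9. The series matrix, used as an alternative, holds linear intensity values with the same distribution on every array, as deposited by the authors (maximum 11603.8); its 4 MI heart and peritoneal columns match the other replicate of their group by rank. Replicate numbers follow the unnormalized table. Per the labels, RNA was Trizol-extracted and cRNA made with the MessageAmp kit. Scanner software is not given in the sources used here.

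Limma 3.58.1 in R 4.3.3 corrected background from detection p-values (neqc, offset 16), quantile-normalized and took log2. Probes with a detection p under 0.05 on both arrays of a group (14817) were kept, then the brightest probe per symbol (34885 of the 45281 probes had 1 symbol, 18 several and 10378 none), giving 10533 tests. One model of group means over 6 arrays gave moderated, two-sided tests, adjusted by Benjamini-Hochberg (threshold 0.05). The test was checked on simulated data. A gene above background on no array of the dimmer group gets a bound, against the lowest normalized value above background per array. The bound is taken from group means and does not allow for variation among arrays. Members and lists were chosen with earlier results of these data known. Of other lists, up to 3 called genes with the largest difference per comparison are named, and Tnip2, Icam1, Cd83 and Nppa in addition.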

Additional observations from a re-analysis of the deposited data

How the results depend on the processing

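With 2 arrays per group, the number of arrays and dim probes near background limit precision. For the 9 genes, 137 of 139 alternative values in the intact heart against the peritoneal cavity kept their direction and side of the threshold, 130 of 139 in the MI heart against the peritoneal cavity (9 lost a call) and 130 of 139 between the heart groups. There, differences near 0 changed sign: Rel to 0.020 with median scaling, Nfkb2 to -0.0018 without MI heart replicate 2 and to -0.036 without intact heart replicate 1 (highest 0.13, without intact heart replicate 2), Nfkbia to -0.18 without MI heart replicate 2 and -0.27 without intact heart replicate 2 (highest 0.39, without intact heart replicate 1). Genes called between the heart groups (1001) became 657 with no background correction, 648 with series matrix values, 424 with no filter, 565 with detection on all arrays, 590 with the 2 groups alone, and 251 (without MI heart replicate 1) to 974 with 1 array left out. MI heart against peritoneal calls (1855) became 1184 with no filter, 1054 with detection on all arrays (fewer genes tested) and 924 to 2177 with 1 array left out. Intact heart against peritoneal calls (2673) became 1523 with detection on all arrays and 1426 to 2398 with 1 array left out. The setting of detection on all arrays required a detection p under 0.01 on every array. Of the 9 genes, 4 were tested under it: 3 were higher in the MI heart and 4 in the intact heart than in the peritoneal cavity. With 1 array left out, 5 (without MI heart replicate 2) to 8 were higher in the MI heart, 6 to 8 in the intact heart, and 0 to 2 were called between the heart groups; a lone array was assumed to vary like the other groups. With every probe on its own, 2 of 13 probes were called between the heart groups. Same-numbered arrays of different groups correlated in their deviations at 0.083, 0.168 and 0.181, and share only a number. With the replicate number as a block, 1315, 2150 and 3037 tests were called, and 2 of the 9 genes were called between the heart groups, Tnip1 (0.72, adjusted p = 0.0213) and Rela (-0.65, adjusted p = 0.0346), and no other of their calls changed; with the series matrix's replicate numbers, chosen after seeing the data, 0 were. Median scaling gave 612 higher and 165 lower calls between the heart groups (main 479 and 522) and 742 and 1922 in the intact heart against the peritoneal cavity (main 1321 and 1352), with the median of all tests at 0.12 and -0.18. The causes were not tested.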
